A study of Mus musculus with 12 samples.

Results

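The Myc, Max and Mxd network was described here through 9 genes, taken by symbol from a table of 36222 genes: Myc, Max, Mxd1, Mxd3, Mxd4, Mxi1, Mnt, Mlx and Mga. Each symbol matched 1 gene identifier, so no choice between identifiers was needed. Myc is a transcription factor that works only as a dimer with Max, and the dimer binds the E-box CACGTG and raises genes for growth, nucleotide synthesis and ribosome production. The Mxd proteins (Mxd1, Mxd3, Mxd4 and Mxi1) and Mnt compete for the same partner, bind the same sites with Max and recruit the Sin3 corepressor, so they oppose Myc. Mga also pairs with Max and belongs to a Polycomb-like repressor complex, while Mlx pairs with Mnt, with some Mxd proteins and with the glucose sensors Mlxip and Mlxipl. In T cells Myc is an early gene of antigen receptor signalling, and Mxd4, Mxd1 and Mnt are known from quiescent and differentiating lymphocytes.

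The measurements are RNA-seq of regulatory T cells (Treg), labelled as derived from spleen, from mice of 6 to 8 weeks, in 4 groups of 3 libraries each, with separate mice as replicates within a group. Whether ex vivo and stimulated libraries with the same number came from the same mouse is not given in the sources used here. WT Treg carried the Foxp3-YFP-Cre allele alone, and cKO Treg carried the same Cre allele with floxed Ikzf1, which encodes the zinc finger factor Ikaros. All 12 libraries thus came from Cre-bearing cells sorted as YFP+ CD4+ cells, and deletion was limited to cells in which the Foxp3 locus drives Cre. In each genotype, ex vivo Treg were lysed without stimulation, and stimulated Treg were kept for 4 h on plate-bound anti-CD3 and anti-CD28 at 1 µg/ml each. Ex vivo and stimulated cells also differ in time in culture, which cannot be told apart from receptor signalling here.

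Values are TPM, transcript levels that correct for transcript length and sum to 1000000 per library, multiplied by a per-library factor so that the libraries are on a common scale (scaled TPM). Reads on genes ranged from 8208659 to 20247649 per library. The predicted gene Gm10800 took between 17.7% and 55.9% of the TPM of a library and was highest in cKO stimulated replicate 3. Ex vivo its share was 20.5%, 39.8% and 17.7% in WT and 20.4% to 24.4% in cKO. After stimulation it was 32.6% to 44.4% in WT and 42.9% to 55.9% in cKO. Ikzf1 (chr11:11585006-11672929, mm9) matched the labels: its group means were 110.1 ± 5.55 scaled TPM in WT and 37.9 ± 4.57 in cKO ex vivo, and 68.9 ± 2.24 and 27.8 ± 3.91 after stimulation (SD, n = 3 throughout). Treg markers were present in every library, with summed TPM of 8 genes between 945 and 2842. Markers of B cells summed to 11.6 to 25.8 TPM, with 18.6 to 25.8 in cKO and 11.6 to 14.9 in WT ex vivo and 15.6 to 20.7 and 11.7 to 16.9 after stimulation, and those of CD8 T, myeloid, natural killer and erythroid cells to at most 16.9 TPM per list. Foxp3 itself was at 106 ± 17.3 scaled TPM in stimulated WT and 210 ± 49.6 in stimulated cKO Treg. The part of these differences in the results was not tested. In bulk RNA, fewer cells of a type and less RNA per cell cannot be told apart.

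All 9 members are protein-coding genes, and between 45 and 5235 reads stood behind each value. By position in mm9, Myc lies at chr15:61816946-61821929, Max at chr12:78038256-78063235, Mxd1 at chr6:86597038-86619153 and Mxd3 at chr13:55426529-55431119. Mxd4 lies at chr5:34516536-34530369, Mxi1 at chr19:53384996-53450300, Mnt at chr11:74644422-74659227, Mlx at chr11:100948591-100953521 and Mga at chr2:119722964-119795317. Mxd3, Mxi1 and Mlx overlap Prelid1, Gm10197 and Psmc3ip on the other strand, and reads were counted by strand.

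The RefSeq promoter table (GRCm38.p6) held 10 promoters for 8 of the 9 members, each reaching from 250 bases before the start to 50 bases after it. The E-box CACGTG, which reads the same on both strands, was present in the promoters of 4 members: Max, Mxd4, Mnt and Mlx. It was absent as these letters from the 6 promoters of Mxd1, Mxd3, Mxi1 and Mga. Of all 32851 promoters of the table, 7.15% hold CACGTG. The looser form CANNTG, which includes CACGTG, is in 72.3% of them, so its matches tell little apart. The 4 matches are printed with 27 bases on each side because they are the site that the network's own dimers bind. Capitals mark the E-box, each line runs 5′ to 3′ along its gene, and the positions are those of the same sequence in mm9.
Max, chr12:78063206-78063265, minus strand: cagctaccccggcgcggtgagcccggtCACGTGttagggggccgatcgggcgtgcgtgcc
Mxd4, chr5:34530546-34530605, minus strand: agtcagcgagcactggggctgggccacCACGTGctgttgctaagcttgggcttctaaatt
Mnt, chr11:74644276-74644335, plus strand: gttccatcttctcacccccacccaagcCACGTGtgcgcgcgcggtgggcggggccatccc
Mlx, chr11:100948537-100948596, plus strand: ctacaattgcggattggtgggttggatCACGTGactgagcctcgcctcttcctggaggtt
The first base of the E-box lies 3 bases before the start of Max, 40 before that of Mlx, 123 before that of Mnt and 219 before that of Mxd4. A match is a description of the sequence and says nothing of binding. Of the 3 members called lower on stimulation in both genotypes, Max and Mxd4 hold the E-box and Mxd1 does not.

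In ex vivo WT Treg the highest levels of the network were those of an antagonist and of the shared partner. Mxd4 was highest at 78.6 ± 5.27 scaled TPM, then Max at 72.8 ± 8.06, Myc at 59.7 ± 12.4 and Mxd1 at 56.0 ± 5.78. Neighbours among these 4 had overlapping ranges. Mnt followed at 35.2 ± 9.19, then Mlx at 21.7 ± 1.57, Mga at 18.7 ± 1.73, Mxi1 at 10.6 ± 1.78 and Mxd3 at 4.26 ± 0.845, and from Mxd1 downward no neighbouring ranges overlapped. Ex vivo cKO Treg had the same 4 genes on top, in the order Mxd4, Max, Mxd1 and Myc, again with overlapping ranges. After 4 h of stimulation Myc was the highest member in both genotypes, above Max in each of the 6 libraries, and its range did not overlap that of Max in either genotype. The antagonists changed places between genotypes: in stimulated WT Treg Mxd4 (43.9 ± 1.10) stood above Mxd1 (29.999 ± 2.41) in 3 of 3 libraries, and in stimulated cKO Treg Mxd1 (46.0 ± 5.30) stood above Mxd4 (28.7 ± 5.29) in 3 of 3, with no overlap of ranges in either group.

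**Figure D1:**
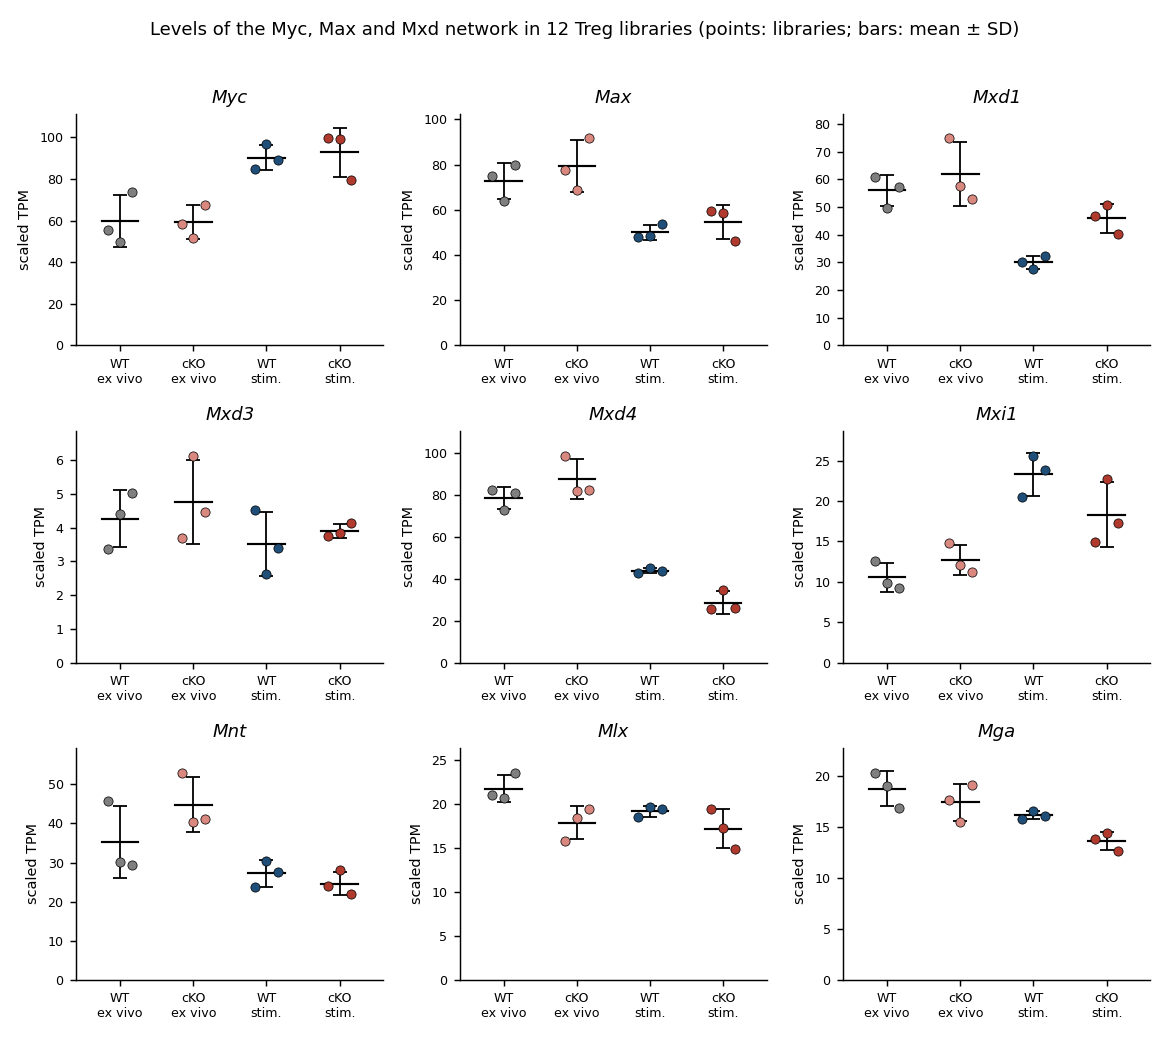
Scaled TPM (vertical axis, from 0, a separate scale for each gene) of the 9 members in the 4 groups. Points are libraries, horizontal bars the mean and vertical bars the SD of 3 libraries. Myc and Mxi1 are higher and Max, Mxd1, Mxd4 and Mga lower in every stimulated than in every ex vivo library of the same genotype.

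The main tests compared genotypes within each condition and conditions within each genotype with limma over 13318 genes, and a gene was called at an adjusted p under 0.05. No member was called between genotypes ex vivo (0 of 9, against 5.29% of all genes tested, 3.62% higher and 1.67% lower in cKO), and 1 of 9, Mlx, had an unadjusted p under 0.05, as did 2384 of 13318 genes. After stimulation 2 of 9 members differed between genotypes, against 6.93% of all genes: Mxd1 was higher in cKO (3.30% of all genes were) and Mxd4 lower (3.63%). Stimulation changed 5 of 9 members in WT Treg, against 32.0% of all genes (12.7% higher, 19.3% lower), and 7 of 9 in cKO Treg, against 43.8% (17.3% higher, 26.5% lower). Myc and Mxi1 rose in both genotypes. Max, Mxd1 and Mxd4 fell in both, and Mnt and Mga were called lower in cKO only, which is not a test of a difference between genotypes. No member passed the test of that difference, the interaction of genotype and stimulation, which called 1.10% of all genes (0.451% positive, 0.653% negative), although 3 of 9 members had an unadjusted p under 0.05 (Mxd4, Mxi1 and Mxd1), as did 1925 of 13318 genes.

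Members whose libraries did not overlap between the groups were also counted. Ex vivo 1 of 9 members was apart between genotypes, Mlx, lower in cKO, where 21.5% of all genes were apart (11.6% higher, 9.96% lower). After stimulation 3 of 9 were apart, Mxd1 higher and Mxd4 and Mga lower in cKO, against 30.8% of all genes (12.8% higher, 18.0% lower). On stimulation 7 of 9 were apart in WT, Myc and Mxi1 higher and Max, Mxd1, Mxd4, Mlx and Mga lower, against 47.5% of all genes (21.1% higher, 26.3% lower). In cKO 7 of 9 were apart, the same as those called there, against 53.5% of all genes (22.8% higher, 30.7% lower).

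Both calls between genotypes were lost in 3 alternatives that changed the genes tested and, with them, the scaling factors. No member was called after stimulation with genes down to 1 TPM (33873 genes tested), with no filter (36222) or with TPM recomputed without Gm10800 (23334), and in these Mxd1 was 0.29 to 0.40 and Mxd4 -0.91 to -0.82 in log2. Where the scaling alone was changed (deposited TPM, median of ratios, quantile), Mxd4 was called each time, and with only the 2 groups fitted it was not (adjusted p = 0.0560). With TPM as deposited Mxd1 was not called (0.31, adjusted p = 0.384). The cause was not tested, and ratios within a library, given beside the tests, do not use this scale.

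**Figure D2:**
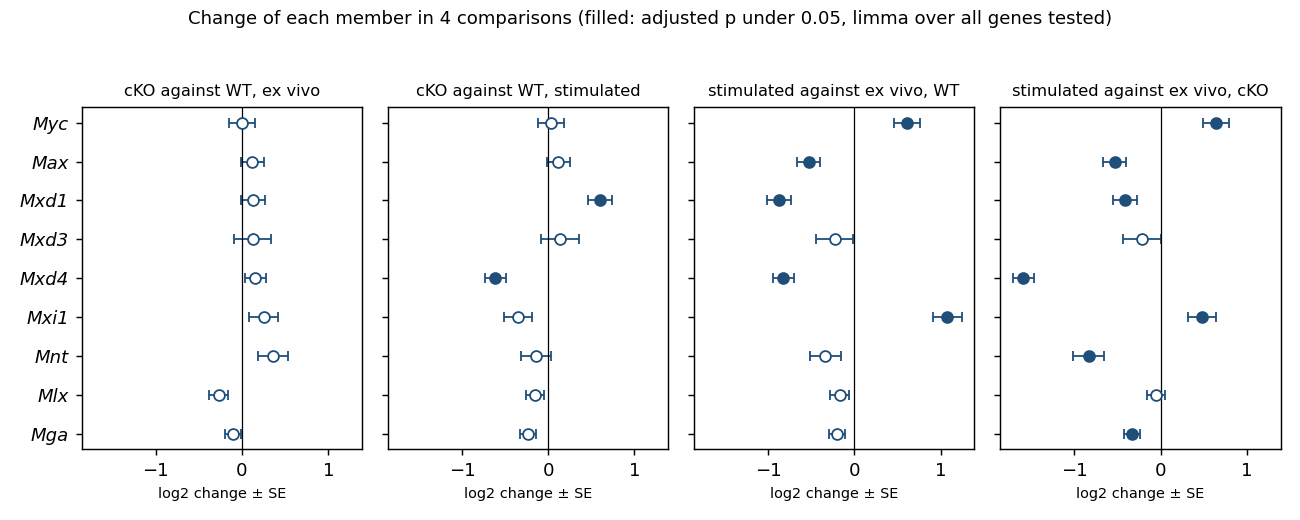
Log2 change of scaled TPM + 1 (horizontal axis) with its SE for the 9 members in 4 comparisons. Filled points passed an adjusted p of 0.05. Only Mxd1 and Mxd4 are filled in a genotype comparison, on opposite sides of 0.

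Myc, the activator of the network, was between 49.9 and 73.6 scaled TPM in the ex vivo libraries of both genotypes. The WT ex vivo libraries had 55.5, 49.9 and 73.6, and the cKO ex vivo libraries 58.6, 51.4 and 67.6. Stimulated WT libraries had 84.8, 97.05 and 89.1, and stimulated cKO libraries 99.5, 99.3 and 79.4. Every stimulated library was above every ex vivo library, and the genotypes overlapped in both conditions. Myc rose by 0.61 ± 0.15 in log2 (1.52-fold, adjusted p = 0.0113) in WT Treg and by 0.64 ± 0.15 (1.56-fold, adjusted p = 0.00703) in cKO Treg (SE). The genotype difference after stimulation was 0.03 with a 95% interval of -0.31 to 0.37, and ex vivo the interval was -0.34 to 0.34. The interaction was 0.03 ± 0.22 (adjusted p = 0.961). The rise kept its sign under each alternative, but of 11 alternatives that kept every library it was called in 8 in WT and 7 in cKO. It was not called in either genotype with genes down to 1 TPM (0.36 in WT, adjusted p = 0.555, and 0.084 in cKO, adjusted p = 0.876), with no filter (0.35 and 0.090) or without Gm10800 (0.48, adjusted p = 0.219, and 0.34, adjusted p = 0.276), nor in cKO with deposited TPM (0.31, adjusted p = 0.334). Over the alternatives other than leaving out a library, the adjusted p was at most 0.577 in WT and 0.877 in cKO, and the call held in both genotypes whichever library was left out.

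Max, the obligate partner of Myc and a partner of its antagonists, moved against Myc. Its WT values were 74.8, 64.0 and 79.7 scaled TPM ex vivo and 47.8, 48.2 and 53.9 after stimulation. In cKO Treg its values were 77.7, 68.6 and 91.6 ex vivo and 59.2, 58.4 and 46.1 after stimulation. The ex vivo and stimulated libraries did not overlap in either genotype. Max fell by 0.53 in log2 in WT (SE 0.13, adjusted p = 0.0110) and by 0.53 in cKO (SE 0.13, adjusted p = 0.00907). Without cKO stimulated replicate 3 the difference in cKO was -0.37 and was not called (adjusted p = 0.0598, in a range of 0.0059 to 0.0598 over the 12 fits that left out 1 library). Under quantile normalization it was -0.01 in cKO and -0.18 in WT, neither called, and with deposited TPM it was -0.34 in WT and not called. The WT call was also lost, at a larger difference, with genes down to 1 TPM (-0.78, adjusted p = 0.138), with no filter (-0.79, adjusted p = 0.137) and without Gm10800 (-0.67, adjusted p = 0.0726), so that 6 of 11 alternatives called it. Genotype differences were 0.12 in both conditions, with 95% intervals of -0.18 to 0.41 ex vivo and -0.17 to 0.41 after stimulation.

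The ratio of Myc to Max within a library does not depend on how libraries are scaled against each other. Ex vivo it was 0.743, 0.780 and 0.923 in WT and 0.754, 0.7496 and 0.738 in cKO. After stimulation it was 1.78, 2.01 and 1.65 in WT and 1.68, 1.70 and 1.72 in cKO. The transcripts thus went from fewer Myc than Max to more Myc than Max in every library, a 2.23-fold change of the group mean in WT and 2.28-fold in cKO, with overlapping genotypes in both conditions.

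Mxd1, an antagonist that rises with differentiation in many cell types, was the member with the largest log2 fall in stimulated WT Treg. The log2 change of Mxd4 there was close to it (-0.83, SE 0.12, against -0.88, SE 0.14). WT libraries had 60.9, 49.6 and 57.4 scaled TPM ex vivo and 30.04, 27.6 and 32.4 after stimulation. cKO libraries had 74.8, 57.8 and 52.8 ex vivo and 46.6, 50.9 and 40.4 after stimulation. The stimulated groups did not overlap, with every cKO library above every WT library, whereas the ex vivo groups did. Mxd1 fell by 0.88 in log2 in WT (SE 0.14, adjusted p = 0.00072) and by 0.41 in cKO (SE 0.14, adjusted p = 0.0337). In stimulated cKO Treg it was 1.51-fold higher than in stimulated WT Treg (log2 0.60 ± 0.14, adjusted p = 0.0268), and the interaction was 0.47 ± 0.19 (adjusted p = 0.305).

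The Mxd1 genotype call after stimulation held in 7 of the 12 fits that left out 1 library. It was lost without WT stimulated replicate 1 (adjusted p = 0.0716), replicate 2 (0.108) or replicate 3 (0.0557) and without cKO stimulated replicate 1 (0.0877) or replicate 2 (0.0661), with log2 values between 0.52 and 0.72 over the 12 fits that left out 1 library and adjusted p between 0.0137 and 0.108. Foxp3, whose locus drives Cre and YFP, was also higher in stimulated cKO Treg (log2 0.96, adjusted p = 0.00847), and its part in the result was not tested. The call of the fall in cKO was lost without cKO ex vivo replicate 1 (log2 -0.26, adjusted p = 0.133), cKO stimulated replicate 3 (-0.27, adjusted p = 0.177), cKO stimulated replicate 1 (-0.42, adjusted p = 0.0661) or WT ex vivo replicate 3 (-0.36, adjusted p = 0.0671), and it turned to +0.051 under quantile normalization. It was also lost under median of ratios scaling (adjusted p = 0.0579) and with only the 2 groups fitted (0.0778). In WT the call of the fall was lost with deposited TPM (-0.68, adjusted p = 0.0795), the only loss among 11 alternatives.

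Mxd4, the antagonist with the highest level in ex vivo Treg, had the largest change of the 9. WT libraries had 82.2, 72.6 and 81.0 scaled TPM ex vivo and 43.0, 45.1 and 43.5 after stimulation. cKO libraries had 98.8, 82.0 and 82.3 ex vivo and 25.3, 34.8 and 25.9 after stimulation. Stimulated libraries were below ex vivo libraries in both genotypes, and every stimulated cKO library was below every stimulated WT library. Mxd4 fell by 0.83 in log2 in WT (SE 0.12, adjusted p = 0.00048) and fell by 1.59 in cKO (SE 0.12, adjusted p = 5.38e-06), to 0.56 and 0.33 of the ex vivo level. In WT the call was lost with deposited TPM (-0.63, adjusted p = 0.0652), and in cKO it held in all 11 alternatives. Of all genes tested, 1.88% had a value at or below that of Mxd4 in cKO.

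Stimulated cKO Treg had 0.65 times the Mxd4 of stimulated WT Treg (log2 -0.61 ± 0.12, adjusted p = 0.0136), a difference opposite in sign to that of Mxd1. The interaction for Mxd4 was -0.76 ± 0.17 with an unadjusted p of 0.00105, and after adjustment over all genes it was not called (0.0663). It was called at -0.91 without cKO stimulated replicate 2 (adjusted p = 0.0181) and at -0.68 under quantile normalization (adjusted p = 0.0164), in a range of 0.0181 to 0.154 over the fits that left out 1 library. The other 9 of 10 alternatives did not call it, and the highest adjusted p among them was 0.650. The genotype call after stimulation was lost without WT stimulated replicate 2 (adjusted p = 0.0590) or replicate 3 (0.0501) and without cKO stimulated replicate 1 (0.0641) or replicate 3 (0.0634), with log2 values of -0.75 to -0.52.

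The ratio of Mxd1 to Mxd4 within a library, chosen after the values of both were seen, was 0.741, 0.684 and 0.709 in WT ex vivo, 0.758, 0.704 and 0.642 in cKO ex vivo and 0.699, 0.611 and 0.745 in stimulated WT Treg. In stimulated cKO Treg it was 1.84, 1.47 and 1.56. The other 9 libraries lay between 0.611 and 0.758, and the 3 stimulated cKO libraries were all above 1, a 2.37-fold higher group mean than in stimulated WT Treg. This ratio is free of the scaling between libraries, and it is given with no test.

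**Figure D3:**
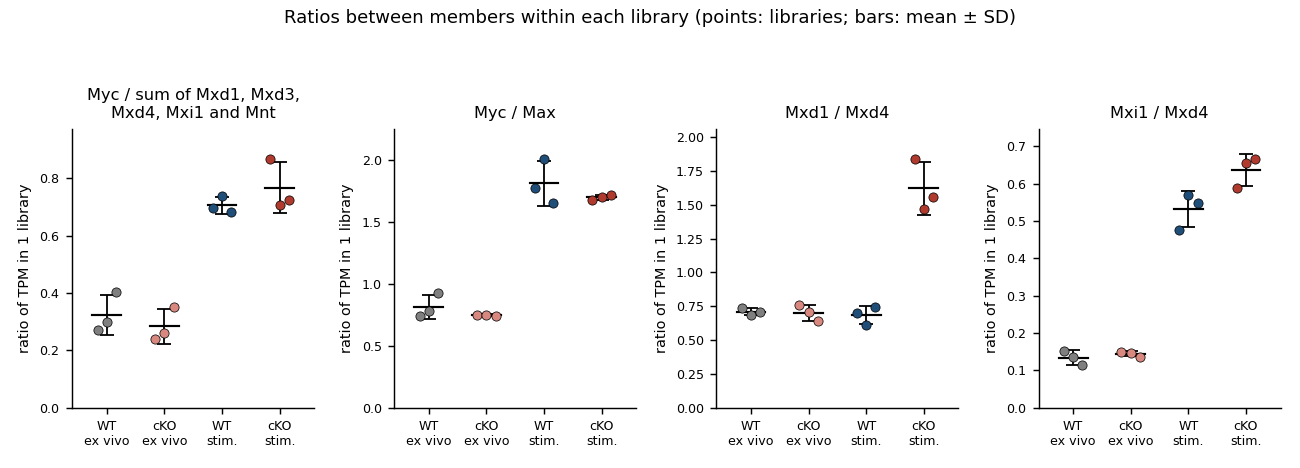
Ratio of TPM of the named members within each library (vertical axis, from 0), by group. Points are libraries and bars the mean and SD of 3 libraries. Myc over its antagonists and Myc over Max separate stimulated from ex vivo libraries in both genotypes, Mxd1 over Mxd4 separates the 3 stimulated cKO libraries from the other 9, and Mxi1 over Mxd4 is at most 0.153 ex vivo and at least 0.477 after stimulation.

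Mxi1, an Mxd family antagonist, was the only one of the 5 antagonists with a called rise. WT libraries had 12.6, 9.83 and 9.27 scaled TPM ex vivo and 20.5, 25.6 and 23.8 after stimulation. cKO libraries had 14.8, 12.1 and 11.3 ex vivo and 14.9, 22.7 and 17.3 after stimulation. The groups did not overlap in either genotype, although in cKO the lowest stimulated library was close to the highest ex vivo library. Mxi1 rose by 1.08 ± 0.16 in log2 in WT (2.11-fold, adjusted p = 0.000594) and by 0.48 ± 0.16 in cKO (1.39-fold, adjusted p = 0.0357). The call in cKO was lost without cKO ex vivo replicate 2 (adjusted p = 0.0806), cKO ex vivo replicate 3 (0.120) or cKO stimulated replicate 2 (0.121), and the sign turned to -0.047 with genes down to 1 TPM. It was also lost with deposited TPM (0.17, adjusted p = 0.554), without Gm10800 (0.20, adjusted p = 0.515) and with only the 2 groups fitted (adjusted p = 0.0677). In WT the call was lost with genes down to 1 TPM (0.84, adjusted p = 0.103) and with no filter (0.84, adjusted p = 0.110). Neither genotype difference (0.25 ex vivo, -0.35 after stimulation) nor the interaction (-0.60 ± 0.23, adjusted p = 0.268) was called. Within libraries, Mxi1 was 0.114 to 0.153 times Mxd4 ex vivo, and 0.477 to 0.569 times in stimulated WT and 0.587 to 0.667 times in stimulated cKO Treg.

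Mxd3, known for its expression in S phase of proliferating cells, was the lowest member in all 4 groups. Its libraries lay between 2.63 and 6.13 scaled TPM, behind 45 to 131 reads, and the groups overlapped in each comparison. It entered the test only through its mean in ex vivo cKO Treg. Its log2 differences lay between -0.23 and 0.14 in the 4 comparisons, none called, with 95% intervals reaching from -0.71 to 0.62. In 3 of 11 alternatives Mxd3 was called lower on stimulation in cKO, against -0.21 here: with genes down to 1 TPM (-0.66, adjusted p = 0.0310), with no filter (-0.65, adjusted p = 0.0373) and under quantile normalization (-0.73, adjusted p = 0.0122).

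Mnt, the most widely expressed antagonist of Myc, was at 45.8, 30.2 and 29.5 scaled TPM in WT ex vivo and 53.0, 40.3 and 41.2 in cKO ex vivo. After stimulation it was at 23.7, 30.5 and 27.5 in WT and 24.0, 28.0 and 22.0 in cKO. Ex vivo and stimulated libraries overlapped in WT and were apart in cKO. Mnt fell by 0.83 in log2 in cKO (SE 0.18, adjusted p = 0.00355), with a range of -0.93 to -0.71 when 1 library was left out. In WT the difference was -0.34 ± 0.18 (adjusted p = 0.170), and the interaction was -0.50 ± 0.25 (adjusted p = 0.387). The genotype difference ex vivo was 0.36 with a 95% interval of -0.03 to 0.75.

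The make-up of the 5 antagonists differed with stimulation and, after it, with genotype. Mxd4 held 42.7% ± 2.27 of their summed TPM in WT ex vivo, Mxd1 30.3% ± 1.01, Mnt 18.9% ± 3.15, Mxi1 5.71% ± 0.553 and Mxd3 2.35% ± 0.616, and ex vivo cKO Treg had overlapping ranges for each of the 5. In stimulated WT Treg the Mxd4 share was 34.3% ± 1.004, the Mxd1 share 23.5% ± 2.17 and the Mxi1 share 18.2% ± 1.34. In stimulated cKO Treg the Mxd4 share was 23.5% ± 1.34, the Mxd1 share 38.0% ± 2.41 and the Mxi1 share 14.99% ± 1.74. For these 3 genes the stimulated genotypes did not overlap. Shares sum to a whole, so a lower Mxd4 raises the others. The Mnt share stayed between 16.2% and 23.2% over all 12 libraries, with overlapping groups in each comparison.

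**Figure D4:**
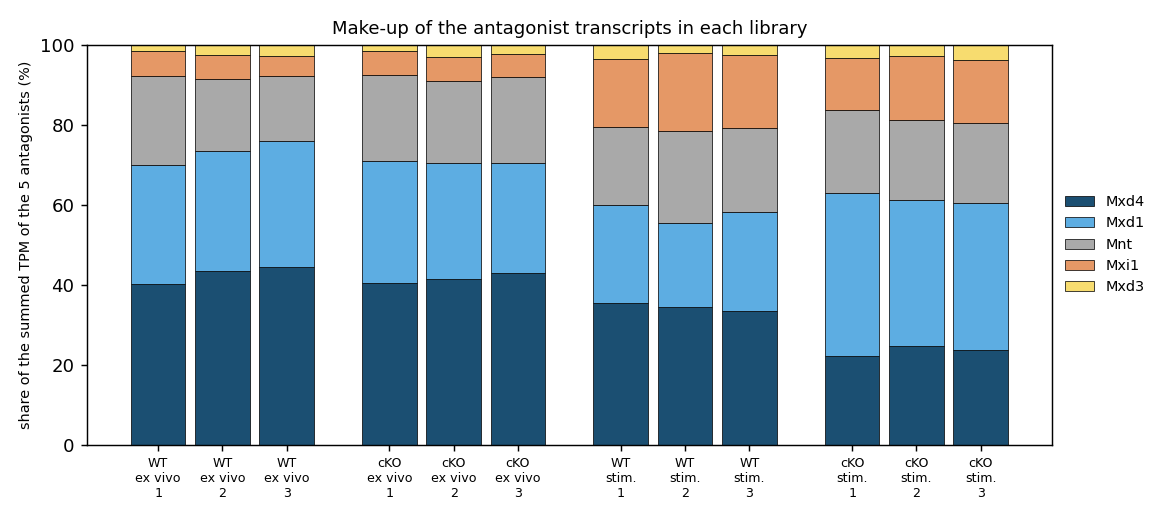
Share (percent, vertical axis) of each of the 5 antagonists in their summed TPM, for each of the 12 libraries. Mxd4 is the largest part in the 9 libraries other than stimulated cKO, where Mxd1 is the largest with 36.3% to 40.7%, and the Mxi1 part is wider in all 6 stimulated libraries.

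The ratio of Myc to the sum of these antagonists separated stimulated from ex vivo libraries. It was 0.271, 0.299 and 0.404 in WT ex vivo and 0.239, 0.259 and 0.352 in cKO ex vivo. After stimulation it was 0.697, 0.739 and 0.682 in WT and 0.869, 0.708 and 0.724 in cKO. Every stimulated library was above every ex vivo library, the group means differed 2.17-fold in WT and 2.71-fold in cKO, and the genotypes overlapped in both conditions. Max relative to the sum of its partners (Myc, the 5 antagonists and Mga) was 0.277 ± 0.0138 in WT ex vivo and 0.213 ± 0.0159 in stimulated WT Treg, without overlap. In cKO it was 0.276 ± 0.0460 and 0.240 ± 0.0177, with overlap. After stimulation the genotypes nearly met, at 0.2284 in the highest WT and 0.2287 in the lowest cKO library.

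Ratios of Myc to single antagonists were compared between the stimulated genotypes. Myc was 3.03 ± 0.425 times Mxd1 in stimulated WT and 2.02 ± 0.102 times in stimulated cKO Treg, and 2.06 ± 0.0901 and 3.28 ± 0.568 times Mxd4, each without overlap. Against Mxi1 it was 3.89 ± 0.219 times in WT and 5.22 ± 1.28 times in cKO, also without overlap, and against Mnt 3.34 ± 0.215 and 3.77 ± 0.332 times, with overlap. Ex vivo the genotypes overlapped in each of these 4 ratios.

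Mga, the largest protein of the network, was at 20.3, 19.0 and 16.8 scaled TPM in WT ex vivo, 17.6, 15.5 and 19.0 in cKO ex vivo, 15.8, 16.6 and 16.1 in stimulated WT and 13.8, 14.4 and 12.6 in stimulated cKO Treg. The stimulated cKO libraries were the lowest 3 of the 12. Mga fell by 0.33 in log2 in cKO (SE 0.09, adjusted p = 0.0167) and was not called in WT (-0.20 ± 0.09, adjusted p = 0.134). The genotype difference after stimulation was -0.23 (adjusted p = 0.166), although the groups did not overlap, as was so for 30.8% of all genes tested in that comparison. The fall in cKO was lost without cKO ex vivo replicate 1 (adjusted p = 0.0535), cKO ex vivo replicate 3 (0.0711) or cKO stimulated replicate 3 (0.0932), and under quantile normalization (-0.20, adjusted p = 0.0907).

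Mlx, the partner of the glucose-sensing branch, was at 21.1, 20.6 and 23.5 scaled TPM in WT ex vivo, 15.8, 18.4 and 19.4 in cKO ex vivo, 18.5, 19.7 and 19.4 in stimulated WT and 19.4, 17.3 and 14.9 in stimulated cKO Treg. No comparison was called for Mlx. Ex vivo the genotypes did not overlap, with a difference of -0.27 (95% interval -0.50 to -0.04, adjusted p = 0.201), and 21.5% of all genes tested did not overlap there. Its stimulation difference in cKO (-0.06) changed sign under median of ratios scaling, under quantile normalization and when single libraries were left out. In WT it was -0.17, and it changed sign with deposited TPM.

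Of the family members outside the 9, only Mlxip, the partner of Mlx, reached 5 TPM. It was at 25.1 ± 3.83 and 32.5 ± 2.94 scaled TPM in ex vivo WT and cKO Treg and 27.7 ± 1.91 and 27.8 ± 4.96 after stimulation, with no call. Mycn, Mycl1 and Mlxipl reached at most 4.07 TPM in any library and were not tested. Both listed targets of the Mlx and Mlxip pair were called in both genotypes, in opposite directions, where 32.0% of all genes were called in WT and 43.8% in cKO. Txnip, an inhibitor of glucose uptake, fell by 0.90 in log2 in WT (adjusted p = 0.000433) and by 1.10 in cKO (adjusted p = 9.86e-05), while the arrestin Arrdc4 rose by 0.50 (adjusted p = 0.0190) and 0.67 (adjusted p = 0.00353).

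Transcripts of known induced targets of Myc mostly did not rise with Myc at 4 h. Of 46 such genes, 21 were called lower and 2 higher on stimulation in WT Treg, that is 45.7% and 4.35%, against 19.3% and 12.7% of all genes tested. In cKO Treg 27 were lower and 4 higher, that is 58.7% and 8.70%, against 26.5% and 17.3%. The medians of the list were -0.29 and -0.40 in log2, beside 0.00 and -0.01 over all genes. The number of lower targets was 16 to 22 in WT and 18 to 27 in cKO when 1 library was left out. In WT it was 12 with genes down to 1 TPM included and 5 with deposited TPM, and in cKO it was 16 under quantile normalization. The number of higher targets was at most 5 under any alternative. Many calls of single genes on this and the other lists were lost under some alternative or without 1 library.

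Among the called targets, Slc3a2, the heavy chain of amino acid transporters, fell by 1.55 in log2 in WT (adjusted p = 1.83e-05) and by 1.56 in cKO (adjusted p = 1.21e-05). Eif4a1, the initiation helicase, fell by 1.304 in WT (adjusted p = 1.84e-05). The rises included Eif4ebp1, an inhibitor of cap-dependent translation (0.66 in WT, adjusted p = 0.00789, and 0.60 in cKO, adjusted p = 0.0101), the cap-binding protein Eif4e in WT (0.37, adjusted p = 0.0290) and the spermidine synthase Srm in cKO (0.63, adjusted p = 0.0212). Between genotypes, 2 of 46 targets (4.35%) were higher and 1 (2.17%) lower in cKO ex vivo, against 3.62% and 1.67% of all genes, and 2 (4.35%) were higher and 0 lower after stimulation, against 3.30% and 3.63%. The glycolytic enzyme Hk2 was higher in cKO ex vivo (0.80, adjusted p = 0.00637) and after stimulation (0.54, adjusted p = 0.0346). Odc1, the first enzyme of polyamine synthesis, was higher in cKO ex vivo (0.66, adjusted p = 0.0302), Eif4a1 was lower there (-0.45, adjusted p = 0.0482), and the cyclin Ccnd2 was higher after stimulation (0.67, adjusted p = 0.0237). With a replicate block, the genotype calls of Hk2 after stimulation and of Odc1 and Eif4a1 ex vivo were lost.

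Genes that Myc is known to lower were called lower more often than higher, as were all genes tested. Of 9 tested, 5 (55.6%) were lower and 2 (22.2%) higher on stimulation in WT, against 19.3% and 12.7% of all genes, and 7 (77.8%) lower and 2 (22.2%) higher in cKO, against 26.5% and 17.3%, with medians of -0.56 and -0.59 in log2. The antiproliferative genes Btg1 and Btg2 fell, with log2 changes of -1.48 and -1.43 in WT (adjusted p = 2.65e-05 and 9.04e-05) and -1.53 and -1.43 in cKO (adjusted p = 1.59e-05 and 7.21e-05). Ndrg1, a stress-responsive gene, rose by 1.77 in WT (adjusted p = 4.00e-06) and 1.80 in cKO (adjusted p = 3.04e-06), and the cell cycle inhibitor Cdkn1c by 0.99 (adjusted p = 0.00264) and 1.05 (adjusted p = 0.00156). Cdkn1a, the p53-responsive inhibitor, was 1.07 higher in log2 in ex vivo cKO than WT Treg (adjusted p = 0.00535), and Ccng2 was 0.51 lower in stimulated cKO Treg (-0.51, adjusted p = 0.0280). The Ccng2 call was lost with a replicate block.

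Among the 14 genes on the list of Myc cofactors, 2 (14.3%) were called higher and 1 (7.14%) lower on stimulation in WT, against 12.7% and 19.3% of all genes, and 0 higher and 3 (21.4%) lower in cKO, against 17.3% and 26.5%, with medians of 0.03 and -0.06. The acetyltransferase Kat2a fell by 0.95 in WT (adjusted p = 6.96e-05) and 0.67 in cKO (adjusted p = 0.000594), Kat5 fell by 0.39 in cKO (adjusted p = 0.0229), and the Myc-binding factor Zbtb17 and the chromatin remodeller subunit Smarcb1 rose by 0.35 and 0.28 in WT (adjusted p = 0.0219 and 0.0279). Among 12 genes of the Sin3 corepressor, which the Mxd proteins and Mnt recruit, 1 (8.33%) was higher and 2 (16.7%) lower in WT and 0 were higher and 4 (33.3%) lower in cKO, against 12.7% and 19.3% of all genes in WT and 17.3% and 26.5% in cKO, with medians of -0.13 and -0.19. Sin3a itself rose by 0.31 in WT (adjusted p = 0.0219), the histone chaperones Rbbp7 and Rbbp4 fell by 0.47 and 0.29 there (adjusted p = 0.00305 and 0.0147), and Hdac2 and Rbbp7 fell by 0.75 and 0.68 in cKO (adjusted p = 0.000367 and 0.000227). Neither list had a gene called between genotypes (0 of 14 and 0 of 12), where 5.29% of all genes were called ex vivo and 6.93% after stimulation.

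In the complex of Mga, 1 of 9 genes (11.1%) was lower on stimulation in WT, against 19.3% of all genes, and 2 (22.2%) were higher and 3 (33.3%) lower in cKO, against 17.3% and 26.5%, with medians of 0.11 and 0.07. Yaf2 fell by 0.51 in WT (adjusted p = 0.0316) and by 0.64 in cKO (adjusted p = 0.00865), its paralog Rybp fell by 0.75 in cKO (adjusted p = 0.000423), and E2f6 and Ring1 rose by 0.46 and 0.32 in cKO (adjusted p = 0.0385 and 0.0422), both below 0 with genes down to 1 TPM included. Among 12 genes of Myc protein turnover, 1 (8.33%) was higher and 2 (16.7%) lower in WT and 1 (8.33%) higher and 5 (41.7%) lower in cKO, against 12.7% and 19.3% of all genes in WT and 17.3% and 26.5% in cKO, with medians of -0.16 and -0.20. The ubiquitin ligase Huwe1 fell by 0.41 and 0.67 (adjusted p = 0.0375 and 0.00259) and the kinase Aurka by 0.48 and 0.68 (adjusted p = 0.0259 and 0.00348) in WT and cKO, Stub1 rose by 0.46 in WT (adjusted p = 0.0400) and Trim32 by 0.43 in cKO (adjusted p = 0.0391), the last below 0 with genes down to 1 TPM included. The deubiquitinase Usp28, which stabilizes Myc protein, was 0.40 lower in stimulated cKO than WT Treg (-0.40, adjusted p = 0.0244). With a replicate block, this call and those of Ring1 and Trim32 in cKO were lost. Of the genes on these lists, Skp2 and Cdkn2b were below 5 TPM in each group and were not tested.

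The genes whose pattern over the 12 libraries was most like that of Myc were sought by the root mean square difference of centred log2 levels, among genes with a formal symbol. They were Wdr8, Socs4, B4galt7, Stard3 and Fibp, with differences of 0.0884 to 0.132, where the median over all genes was 0.475. Socs4, a member of the cytokine signalling suppressor family, went from 8.65 to 14.1 scaled TPM in WT and from 7.95 to 13.2 in cKO. Most like Mxd1 were Nlrc5, Irf1, Kbtbd11, Ptpn1 and Trim30a, with differences of 0.154 to 0.169 against a median of 0.484. Irf1, an interferon-responsive transcription factor, was at 129 and 138 scaled TPM in ex vivo WT and cKO Treg and at 61.2 and 110.2 after stimulation. Nlrc5, a transactivator of major histocompatibility class I genes, was at 83.2 and 91.4 ex vivo and at 38.8 and 66.6 after stimulation. Likeness of level is a description over 12 libraries that share 4 groups.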

How the data were processed

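Per the labels and the study's methods, the authors depleted rRNA, made directional libraries, read 51 bp paired ends, aligned with STAR 2.6.0c to mm9 and counted reads by strand over Ensembl exons with HTSeq 0.6.1. The deposited table gives TPM (a signal summing to 1000000 per library) and log2 TPM. The step of the deposited log2 values gave whole reads for 99.998% of values within 0.01, used only for depth. The authors' own comparison columns (fold changes and p-values) were not used. Depth limits Mxd3 most.

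TPM were rescaled by TMM factors (30% of M and 5% of A values trimmed). The 13318 genes whose mean reached 5 TPM in some group, all 9 members among them, were tested on log2(scaled TPM + 1) with limma 3.58.1 (R 4.3.3, mean-variance trend, 4 groups, 12 libraries, Benjamini-Hochberg). Fold changes of low genes are understated on this scale. On simulated data for the ex vivo genotype comparison (13318 genes), 50% of genes changed by 1 and 85% of those changed by 2 in log2 were recovered. Of 18 correlations between the deviations of same-numbered libraries, 2 were over 0.1, both between ex vivo WT and ex vivo cKO (0.149 and 0.257). No block was used in the main fit, as the study's methods name none.

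Members and lists were chosen with earlier results of these data known. All members are named, with Ikzf1 and Foxp3. Per list and comparison, at most the 2 called genes with the largest rise and the 2 with the largest fall are named. The 5 genes most like Myc are named too, as are the 5 most like the member with the largest log2 fall in WT. One gene that this rule names is not reported here. Ratios use TPM within a library. Promoters came from RefSeq (GRCm38.p6) and were placed in mm9 by exact match. Alternatives were other filters, pseudocounts and scalings, a replicate block, no trend, pairs of groups fitted alone and each library left out.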

Additional observations from a re-analysis of the deposited data

How the results depend on the processing

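The counts of genes called moved both in alternatives that changed the genes tested, and with them the scaling factors, and in those that changed the scaling alone. Including genes down to 1 TPM gave 57 genes between genotypes ex vivo, 52 after stimulation, 1731 on stimulation in WT and 0 for the interaction with limma, and no filter gave 44, 52, 1677 and 0. The fit of the report called 704, 923, 4262 and 147, with 1925 interactions at an unadjusted p under 0.05. TPM as deposited gave 273, 306, 1943 and 67, TPM recomputed without Gm10800 gave 148, 232, 2738 and 2, quantile normalization gave 1579 after stimulation and 392 interactions, no mean-variance trend gave 95 interactions, and the 2 groups alone gave 310 ex vivo and 546 after stimulation. When 1 library was left out, counts were 331 to 740 ex vivo, lowest without cKO ex vivo replicate 3, 424 to 990 after stimulation, lowest without WT stimulated replicate 2, and 56 to 208 for the interaction, lowest without cKO stimulated replicate 1. The median log2 change of all genes shifted by -0.27 after stimulation, -0.23 in stimulated WT, -0.51 in stimulated cKO and -0.28 in the interaction with genes down to 1 TPM, by 0.22, -0.26, 0.18, -0.30 and -0.48 with deposited TPM (ex vivo first), and by -0.19, -0.13, -0.29 and -0.17 without Gm10800. The share of higher calls, 68.5%, 47.6%, 39.6%, 39.5% and 40.8% in the report's fit, was 95.2%, 22.5%, 60.5%, 11.9% and 8.96% with deposited TPM. On stimulation in WT it was 28.2% without Gm10800, 51.8% under quantile normalization and 17.1% with genes down to 1 TPM, which gave 12.4% in cKO, and all interactions called without Gm10800 were positive. Genes tested were 33873 down to 1 TPM, 36222 with no filter and 23334 without Gm10800, against 13318. The cause was not tested.

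Correlations of same-numbered libraries ran from -0.21 to 0.26 over 18 pairs. Between the ex vivo genotypes they were 0.149, 0.257 and 0.078, where different-numbered pairs lay between -0.18 and 0.063. A replicate block gave 65 interactions and changed no member's call, while 7 calls of other named genes were lost (Odc1 and Eif4a1 ex vivo, Usp28, Hk2 and Ccng2 between stimulated genotypes, Ring1 and Trim32 on stimulation in cKO). Without Mnt, the ratio of Myc to its antagonists was 0.399 in ex vivo WT, 0.359 in ex vivo cKO, 0.897 in stimulated WT and 0.963 in stimulated cKO Treg, and with Mnt, leaving out 1 library gave 0.285 to 0.352, 0.249 to 0.305, 0.690 to 0.718 and 0.716 to 0.796.

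The called changes that took the other sign under some alternative were those of Mxd1, Mxi1, E2f6, Ring1 and Trim32 on stimulation in cKO. With deposited TPM, the ex vivo genotype difference was 0.23 for Myc, 0.12 for Mga and 0.11 for Foxp3, and after stimulation it was -0.26 for Myc, -0.17 for Max and -0.10 for Mxd3. Mlx on stimulation in WT was 0.019, and the interactions were -0.49 for Myc, -0.52 for Max, -0.051 for Mxd1, -0.42 for Mxd3 and -0.39 for Mlx. Without Gm10800 the genotype differences after stimulation were -0.17 for Myc, -0.083 for Max and -0.023 for Mxd3, and the interactions -0.14 for Myc, -0.17 for Max, -0.13 for Mxd3 and -0.048 for Mlx. With genes down to 1 TPM, Myc was 0.0051 ex vivo, the differences after stimulation were -0.27 for Myc, -0.18 for Max and -0.10 for Mxd3, those on stimulation in cKO were -0.047 for Mxi1, -0.021 for E2f6, -0.20 for Ring1 and -0.042 for Trim32, and the interactions -0.27 for Myc, -0.30 for Max, -0.23 for Mxd3 and -0.17 for Mlx. With no filter the same were -0.28 for Myc, -0.19 for Max and -0.10 for Mxd3, then -0.041 for Mxi1, -0.016 for E2f6, -0.19 for Ring1 and -0.037 for Trim32, and -0.26 for Myc, -0.29 for Max, -0.21 for Mxd3 and -0.16 for Mlx. Median of ratios scaling put Mlx in stimulated cKO at 0.0046. A pseudocount of 5 put the interactions of Max and Mxd3 at -0.00037 and -0.0039. Quantile normalization put Myc at 0.026 ex vivo, Mxd3 at -0.15 after stimulation, Mxd1 at 0.051 and Mlx at 0.13 on stimulation in cKO, and the Mxd3 interaction at -0.26.

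Leaving out 1 library changed signs within -0.042 to 0.26 for Mxd3, -0.12 to 0.15 for Myc and -0.015 to 0.23 for Mxd1 ex vivo, within -0.022 to 0.17 for Myc and -0.0099 to 0.29 for Mxd3 after stimulation, within -0.14 to 0.082 for Mlx on stimulation in cKO, and within -0.10 to 0.16 for Max, -0.13 to 0.18 for Mxd3 and -0.085 to 0.19 for Myc in the interaction. Of the members' values, 489 kept sign and call when 1 library was left out, 20 lost and 1 gained a call and 30 changed sign, and under the other alternatives 406 kept both, 31 lost and 6 gained a call and 43 changed sign. Of the values of the other named genes, 541 kept sign and call and 95 lost the call when 1 library was left out, and under the other alternatives 446 kept both, 130 lost the call and 7 changed sign. Of the 6 calls that members gained under the other alternatives, 3 were Mxd3 lower on stimulation in cKO (-0.73 to -0.65, adjusted p of 0.0122 to 0.0373, at most 0.569 over all 11 alternatives) and 1 was the Mxd4 interaction. The others were from quantile normalization. Max was higher in cKO after stimulation (0.29, adjusted p = 0.0426, at most 0.844 over the other alternatives), and the Mxd1 interaction was called (0.63, adjusted p = 0.0450, at most 0.918). Depth limits Mxd3 most, with 45 reads in its lowest library.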
